A study of Mus musculus with 8 samples.

Results

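Imprinted genes are read mainly or only from the copy inherited from 1 parent, and 10 of them were followed in AtT-20 cells, a mouse corticotrope line from the pituitary. They were Gnas, Plagl1, Peg13, Impact, Zrsr1, Nnat, Snrpn, Grb10, Peg3 and Ndn, taken by gene symbol from a list of imprinted genes apart from Mest, and they make up 10 of the 55401 genes in the deposited tables. All cells carried ectopic ER-Pax7, in which tamoxifen switches on the melanotrope factor Pax7, and the 4 groups received tamoxifen for 0, 24, 48 or 72 h, with n = 2 libraries each. The sources used here do not name the promoter that drives ER-Pax7 or the number of clones behind the line. Nothing in the labels says that the replicates came from separate cultures, and p-values measure only library-to-library spread, which may be technical. What ER-Pax7 does, what tamoxifen does by itself and what time in culture does cannot be told apart.

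Imprinting is set by DNA methylation laid down in the egg or the sperm at imprinting control regions and kept through cell division, so that a gene close to such a region stays silent on the copy of 1 parent. The factors known to hold these marks are the zinc finger proteins Zfp57 and Zfp445, their partner Trim28 and the maintenance methyltransferase Dnmt1 with Uhrf1. Many imprinted genes act in growth, metabolism and hormone control, and Gnas is known for its expression from the maternal copy in the pituitary. The deposited tables give 1 value per gene and library. Parental copies and transcript isoforms were therefore not separated, and no methylation was measured in these libraries.

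Promoter sequences of 4 of the genes are shown because CpG dinucleotides, the bases that carry the methylation, are dense in some imprinted promoters and not in others. They come from RefSeq (GRCm38.p6) and run from 250 bases before to 50 bases after the transcript start, 5′ to 3′ on the gene's strand, with each CG in capitals. Plagl1 and Zrsr1 stand for genes with signal over their exons in these libraries, and Nnat and Peg3 for genes with little. The windows lie at chr10:13090582-13090881 on the + strand for Plagl1, at chr11:22971755-22972054 on the + strand for Zrsr1, at chr2:157559828-157560127 on the + strand for Nnat and at chr7:6730370-6730669 on the − strand for Peg3.
Plagl1: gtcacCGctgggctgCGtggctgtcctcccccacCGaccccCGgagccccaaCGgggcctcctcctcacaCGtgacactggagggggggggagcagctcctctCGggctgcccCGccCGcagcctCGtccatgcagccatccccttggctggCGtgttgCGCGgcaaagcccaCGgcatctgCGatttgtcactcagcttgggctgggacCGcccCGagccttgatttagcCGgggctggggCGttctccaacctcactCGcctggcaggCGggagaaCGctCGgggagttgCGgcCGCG
Zrsr1: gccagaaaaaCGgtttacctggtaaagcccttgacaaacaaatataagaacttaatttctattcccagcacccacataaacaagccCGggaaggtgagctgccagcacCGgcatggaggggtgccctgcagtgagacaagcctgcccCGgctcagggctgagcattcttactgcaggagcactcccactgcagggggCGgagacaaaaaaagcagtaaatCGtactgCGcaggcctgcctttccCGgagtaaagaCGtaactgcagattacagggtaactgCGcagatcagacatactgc
Nnat: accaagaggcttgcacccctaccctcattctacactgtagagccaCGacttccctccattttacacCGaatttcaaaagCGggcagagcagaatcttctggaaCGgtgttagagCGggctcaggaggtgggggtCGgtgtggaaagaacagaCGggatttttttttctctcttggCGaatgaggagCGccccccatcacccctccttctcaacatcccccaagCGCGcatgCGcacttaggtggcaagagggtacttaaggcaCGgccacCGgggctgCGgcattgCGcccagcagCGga
Peg3: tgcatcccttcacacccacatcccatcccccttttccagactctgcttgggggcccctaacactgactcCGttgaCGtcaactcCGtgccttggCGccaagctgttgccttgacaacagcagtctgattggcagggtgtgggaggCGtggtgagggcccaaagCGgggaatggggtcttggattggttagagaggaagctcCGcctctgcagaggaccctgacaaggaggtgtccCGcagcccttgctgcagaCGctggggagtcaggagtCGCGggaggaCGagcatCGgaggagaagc

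The Plagl1 window held 26 CG, the Nnat window 17, the Peg3 window 13 and the Zrsr1 window 10, against a median of 7 over 32851 mouse promoters of the same length. Thus all 4 lay above that median, both the genes with signal and those with little. RefSeq promoters were read for 8 of the 10 genes, in 15 windows, which held from 2 CG in a Snrpn window to 45 in a Grb10 window. Windows on chromosome 18, where Impact lies, were left out of these counts by choice, and no Peg13 window was used. The letters TGCCGC, the methylated sequence that Zfp57 is known to bind, were searched on both strands, and their own CG is among those in capitals. They occurred once in the Plagl1 and the Nnat window, in 1 of 4 Snrpn windows and in 1 of 2 Grb10 windows, and in 11.6% of all promoters. A match is a description of the letters and not of binding.

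The level of each gene was read as signal, the mean read coverage over its merged exons as scaled by the authors, so that levels can be set side by side per length. Summed signal was 164236 to 178548 per library, and 9516 to 9608 genes had a signal of at least 1. Of the 7 corticotrope markers, 6 passed that level, with Pomc at 499 to 679 and Tbx19 at 16.3 to 23.2, and of these Nr3c1, the glucocorticoid receptor, was lower at 72 h (log2 difference -0.40, limma adjusted p = 0.0440), whereas Crhr1, the receptor for the hypothalamic hormone that drives corticotropes, lay between 0.0354 and 0.129. Of the 4 melanotrope markers, Oacyl, an acyltransferase gene, had means of 0.0150 at 0 h and 0.627 at 72 h, and Pcsk2, a prohormone convertase, 0.309 and 0.833. In a limma fit with a lower floor, a mean of at least 0.1 and log2(signal + 0.1) over 17871 genes, both were called at 24, 48 and 72 h (adjusted p = 0.00134 and 0.00425 at 72 h). Their part in the values of the imprinted genes was not tested. The signal of Drd2, a dopamine receptor, was 0 in each library. Pax7 lay between 12.6 and 14.4, with 12.9 and 13.3 at 0 h. All cells carried ER-Pax7, and its reads were not separated from those of the native Pax7 gene. The summed signal of the 8 markers of other pituitary hormone cells was 0.221 to 0.289 and that of the 3 progenitor markers 0.409 to 0.532. Fibroblast markers summed to 0.233 to 0.555, immune markers to 0.0275 to 0.0517 and endothelial markers to 0.0246 to 0.0695. Each 0 h library lay nearest the other 0 h library (r = 0.994 over 9606 genes, and genes are not independent replicates). Among the other 6 libraries, 0 lay nearest the second library of their own time. The library nearest to 24 h replicate 2 was 48 h replicate 2 (r = 0.995), and its r with 24 h replicate 1 was 0.984. The replicates of 48 h had r = 0.985 and those of 72 h r = 0.978, the lowest of the 4 times. Results at 24 and 72 h are therefore also given with libraries of those times left out. A time left with 1 library is then assumed to vary like the other groups.

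The 10 genes spanned a wide range of expression. Gnas had a mean of 156 over the 8 libraries, and 63 genes of the 55401 had a higher one. Plagl1 followed at 6.62, then Impact at 1.49, Peg13 at 1.47, Zrsr1 at 0.881, Nnat at 0.130, Snrpn at 0.0711, Grb10 at 0.0244 and Peg3 at 0.00332. Ndn was listed at 0 in all 8 libraries. Impact and Peg13 overlapped library by library and did not differ in level beyond their spread. The libraries of every other pair of neighbours in this order did not overlap.

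**Figure D1:**
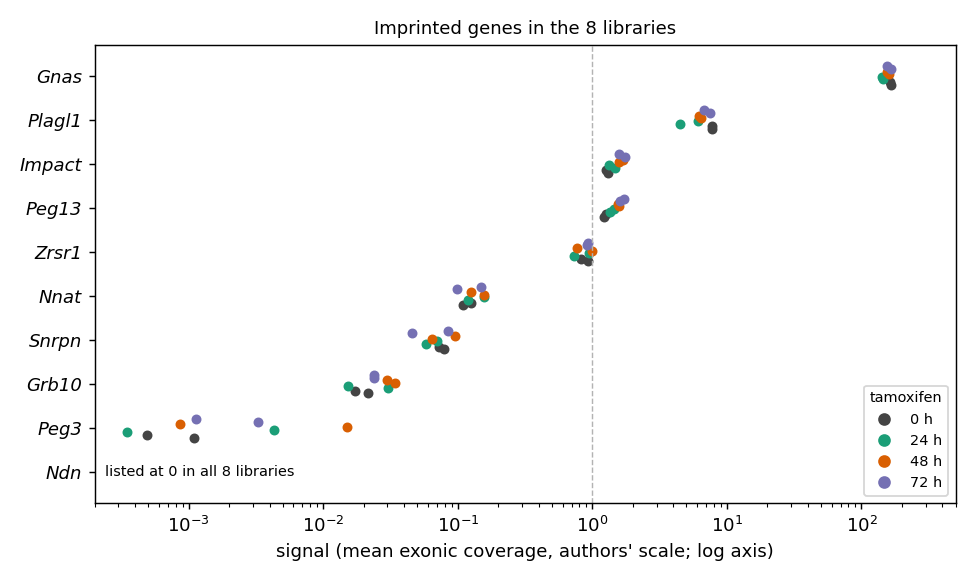
Signal of the 10 imprinted genes in the 8 libraries (log axis, points coloured by hours of tamoxifen; dashed line at a signal of 1, the minimum mean for the test). Gnas lies above 142 in every library, 6 genes have a mean below 1 and Ndn is listed at 0, which a log axis cannot show.

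Times were compared for the genes whose mean signal reached 1, with limma on log2(signal + 1), with Benjamini-Hochberg adjustment over all 9606 such genes and a call at an adjusted p under 0.05. Of the 10 imprinted genes, Gnas, Plagl1, Peg13 and Impact passed the filter and 6 lay below it. At 24 h, 0 of these 4 were called, against 0.229% of all tested genes. At 48 h, 0 were called, against 0.552%, and at 72 h 0 were called, against 2.01%. The comparison of 72 h with 24 h called 0 of the 4, against 0.0208%, and the F test for change at any time called 0, against 0.344%. Without adjustment, p was under 0.05 for 2 of the 4 genes in each comparison with 0 h, for 4 between 24 and 72 h and for 3 in the F test. Of all 9606 tested genes, 1269 had such a p in limma at 24 h, 1010 at 48 h and 1505 at 72 h. Between 24 and 72 h 1302 had one, and in the F test 1331. No other tool was run on these values. None of the 10 genes was called, so no gene was named for a pattern like theirs. The comparisons with 0 h share the 0 h libraries, and at most 2 libraries stand behind each mean.

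Gnas encodes the alpha subunit of the stimulatory G protein Gs, which carries signals from hormone receptors to adenylyl cyclase. Its signal was 166 and 162 in the 0 h libraries, 145 and 142 at 24 h, 160 and 155 at 48 h, and 166 and 156 at 72 h. Both 24 h libraries were the lowest of the 8 and did not overlap with 0 h, nor did those of 48 h, while the 72 h libraries lay on both sides of the lower 0 h library. Among all tested genes, 17.8% lay wholly below 0 h at 24 h and 22% at 48 h. The mean was 164 ± 3.23 at 0 h and 143 ± 1.88 at 24 h (SD, n = 2), a log2 difference of -0.19 (SE 0.07) that limma did not call (adjusted p = 0.298). Without 24 h replicate 2 the difference was -0.18, and leaving out each library in turn gave -0.21 to -0.17.

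At 72 h the log2 difference of Gnas from 0 h was -0.03, with a 95% interval of -0.19 to 0.12 (limma adjusted p = 0.881), and its sign turned under quantile normalization (0.06) and without 72 h replicate 2 (0.01). Between 24 and 72 h it was 0.16, with an interval of 0.01 to 0.31 (limma adjusted p = 0.356). The Gnas gene (ENSMUSG00000027523.20) runs from 174284320 to 174346744 on the + strand of chromosome 2 (GRCm38) in 19 merged exons. Of its 11387 exonic bases, 21.6% also lie in exons of genes annotated on the opposite strand, 988 of them in Gnasas1 and 1469 in Gm20721. Whether reads were counted by strand is not stated in the sources used here, and Gm20721 had 101% to 108% of the Gnas signal in the 8 libraries. The strands therefore cannot be told apart at this locus, and the maternally, paternally and biallelically read transcripts that share its exons were 1 value. The mean of Gnasas1, the antisense RNA of the locus, was 56.4, and its log2 difference at 24 h was -0.29 (limma adjusted p = 0.250).

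The genes that act next to Gs were examined as a list of 15, adenylyl cyclases, protein kinase A subunits, the receptor Crhr1, the related subunit Gnal and the chaperone Ric8b. Of these, 6 passed the filter and 0 were called at 24, 48 or 72 h. The most abundant was Prkar1a, a regulatory subunit of protein kinase A, at 31.8 to 37.6 over the 8 libraries. Among the adenylyl cyclases, only Adcy9 passed the filter, at 1.41 to 1.95. Gnal, the Gs-like subunit of olfactory neurons and striatum, lay between 0.144 and 0.184. The median log2 difference of the 6 was -0.07 at 24 h and 0.05 at 72 h, against 0.01 at both times over all tested genes.

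Plagl1 encodes a zinc finger transcription factor, also called Zac1, that is known to halt growth and is prominent in the pituitary. Its signal was 7.78 and 7.69 at 0 h, 4.49 and 6.08 at 24 h, 6.42 and 6.17 at 48 h, and 7.54 and 6.76 at 72 h. All 6 later libraries lay below both 0 h libraries, as in 6.81% of all tested genes, and 24 h replicate 1 was the lowest of the 8. The means at 0, 24, 48 and 72 h were 7.74 ± 0.0693, 5.28 ± 1.119, 6.30 ± 0.173 and 7.15 ± 0.551 (SD, n = 2 each).

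The 24 h mean of Plagl1 was 0.683 of that at 0 h, a log2 difference of -0.49 (SE 0.11, limma adjusted p = 0.178). Without 24 h replicate 2 it was -0.67 and was called (limma adjusted p = 0.0224), in a fit where the calls over all genes went from 22 to 104. Without 24 h replicate 1 it was -0.30 and was not called (limma adjusted p = 0.240). The 24 h value thus rested on which of these libraries was kept, and in Plagl1 signal the 24 h replicates differed more than those of any other time. At 48 h the log2 difference was -0.26 (limma adjusted p = 0.485) and at 72 h -0.10, with an interval of -0.37 to 0.16 (adjusted p = 0.739). The 72 h value was -0.17 without 72 h replicate 1 and -0.03 without 72 h replicate 2.

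The log2 difference of Plagl1 between 24 and 72 h was 0.38 (limma adjusted p = 0.241), and it was 0.57 without 24 h replicate 2, where it was called (adjusted p = 0.0401) and the calls over all genes went from 2 to 61. The 24 h mean is then 1 library, and its spread is taken from the other groups. The F test over all times gave an adjusted p of 0.236 in limma, and 0.0347 without that library. Plagl1 (ENSMUSG00000019817.18) lies at 13060504 to 13131694 on the + strand of chromosome 10, in 13 merged exons, and 0.5% of its exonic bases lie in exons of another gene. Its promoter above was the most CG-rich of the 4 printed.

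Peg13 is a long noncoding RNA inside the gene for the trafficking protein Trappc9, and its locus is known in brain for expression of Peg13 from the paternal and of neighbouring genes such as Kcnk9 from the maternal copy. Its signal was 1.23 and 1.26 at 0 h, 1.34 and 1.46 at 24 h, 1.57 and 1.55 at 48 h, and 1.61 and 1.72 at 72 h. All 6 later libraries lay above both 0 h libraries, as in 9.58% of all tested genes, and the 4 group means lay in order of time, as in 6.58%. The mean was 1.24 ± 0.0259 at 0 h and 1.67 ± 0.0800 at 72 h (SD, n = 2), a ratio of 1.34.

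The log2 difference of Peg13 was 0.10 at 24 h (limma adjusted p = 0.443), 0.19 at 48 h (adjusted p = 0.179) and 0.25 at 72 h (SE 0.05, interval 0.14 to 0.36, adjusted p = 0.0550). The 72 h value missed the threshold, and the 24 h value was 0.06 without 24 h replicate 2 (limma adjusted p = 0.525). The 72 h value passed without 24 h replicate 1 (limma adjusted p = 0.0428) and without 24 h replicate 2 (0.0435), where the difference itself stayed at 0.25 and the calls over all genes went from 193 to 312 and 319, and its adjusted p was between 0.0525 and 0.270 under the other alternatives. It was 0.28 without 72 h replicate 1 (limma adjusted p = 0.163) and 0.22 without 72 h replicate 2 (adjusted p = 0.267). Peg13 (ENSMUSG00000106847.1) is a single exon of 4725 bases at 72805600 to 72810324 on the − strand of chromosome 15, within an intron of Trappc9 on the same strand.

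Unspliced Trappc9 RNA would pass through the Peg13 exon, so the values of both were set side by side. Trappc9 itself had 0.867 and 0.807 at 0 h, 0.721 and 0.950 at 24 h, 0.907 and 0.859 at 48 h, and 0.902 and 1.09 at 72 h over its own exons. The ratio of Peg13 to Trappc9 was 1.41 to 1.86 over the 8 libraries, with a mean of 1.49 at 0 h and 1.68 at 72 h. Peg13 thus had more signal per base than its host in every library. Trappc9, with a mean of 0.888, was below the filter, and in the fit with the lower floor it was called at 0 of 3 times, with a log2 difference of 0.22 at 72 h (interval -0.10 to 0.54, limma adjusted p = 0.546). Of the other genes at this locus, Ago2, a protein of small RNA silencing, and Chrac1, a chromatin remodelling subunit, were not called at any time, with log2 differences of 0.05 (limma adjusted p = 0.791) and 0.07 (adjusted p = 0.829) at 72 h. Kcnk9, a potassium channel gene, reached at most 0.00838.

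Impact encodes an inhibitor of Gcn2, the kinase that slows translation when amino acids are scarce, and acts by binding the Gcn2 partner Gcn1. Its signal was 1.30 and 1.26 at 0 h, 1.47 and 1.34 at 24 h, 1.58 and 1.69 at 48 h, and 1.74 and 1.58 at 72 h. As with Peg13, all 6 later libraries lay above both 0 h libraries (9.58% of all tested genes) and the group means were in order of time (6.58%). The mean was 1.28 ± 0.0269 at 0 h and 1.66 ± 0.112 at 72 h (SD, n = 2), a ratio of 1.30.

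The log2 difference of Impact was 0.08 at 24 h (limma adjusted p = 0.576), 0.21 at 48 h (adjusted p = 0.186) and 0.23 at 72 h (SE 0.05, interval 0.10 to 0.35, adjusted p = 0.0972). The 24 h value was 0.04 without 24 h replicate 1 and 0.12 without 24 h replicate 2. Impact was called at 0 of 3 times, and at 72 h its adjusted p was between 0.0749 and 0.373 when each library was left out. Without 72 h replicate 1 or 2 the 72 h value was 0.18 or 0.27. Impact (ENSMUSG00000024423.6, chromosome 18) has 16 merged exons and shares 0 exonic bases with other genes. In the Gcn2 pathway list of 6 genes, Ddit3 stood on more than 1 row and was set aside. Gcn1, Atf4, Asns and Trib3 passed the filter and 0 of these 4 were called at any time, with Atf4 at 24.8 to 27.1 and Asns, a target of Atf4, at 34.2 to 40.1. Eif2ak4, which encodes Gcn2 itself, lay between 0.475 and 0.670.

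**Figure D2:**
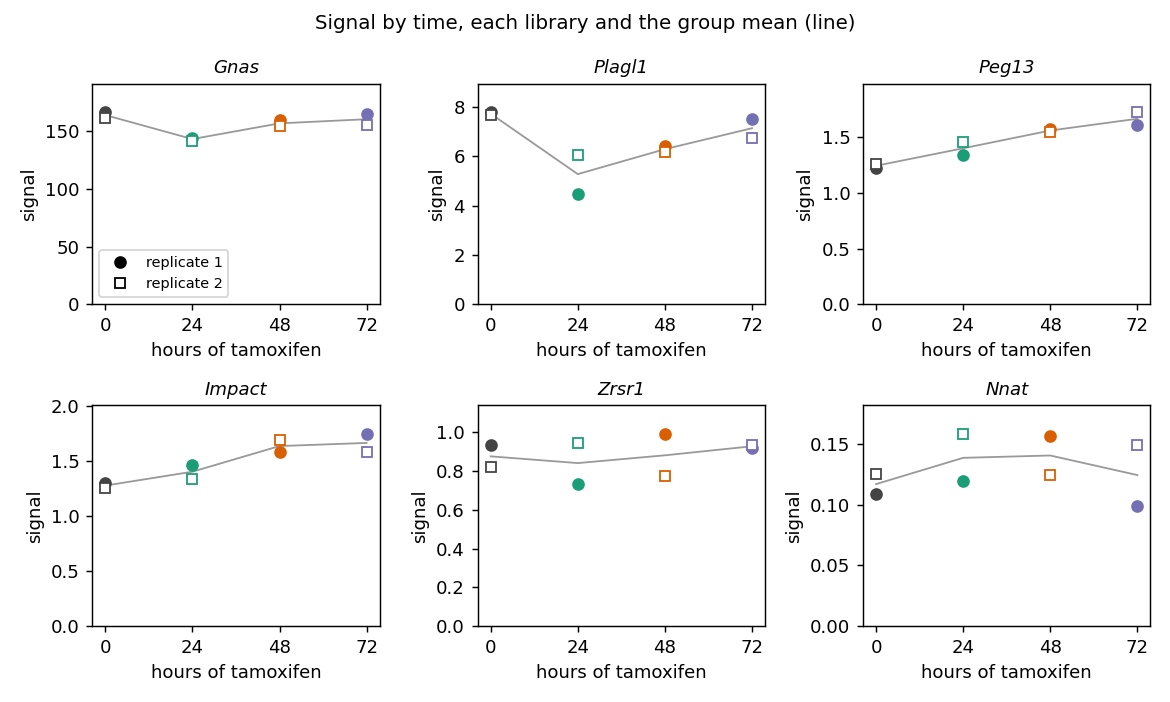
Signal by hours of tamoxifen for 6 imprinted genes, with each library as a point (filled circles replicate 1, open squares replicate 2) and the mean of each time as a line. Peg13 and Impact lie above both 0 h libraries in all 6 later libraries and Plagl1 below them, and Zrsr1 and Nnat overlap between times.

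Zrsr1 is a retrogene, an RNA-binding protein of the minor splicing machinery, and it is read from the paternal copy. Its signal was 0.931 and 0.819 at 0 h, 0.735 and 0.946 at 24 h, 0.989 and 0.772 at 48 h, and 0.919 and 0.935 at 72 h. The libraries of the 4 times overlapped. Zrsr1 had a mean just under the filter, so its fold changes come from the limma fit with the lower floor. The log2 differences on that scale were -0.06 at 24 h (adjusted p = 0.914), 0.00 at 48 h (adjusted p = 0.99995) and 0.08 at 72 h (interval -0.27 to 0.42, adjusted p = 0.882).

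Zrsr1 (ENSMUSG00000044068.7, chromosome 11, 22972005 to 22976496, + strand) lies inside the spans of Commd1 and Commd1b, both on the − strand, and 412 of its 4492 bases are also exonic in Commd1. Commd1, a copper and trafficking protein gene that is maternally biased in mouse brain, had a mean of 4.32. The ratio of Zrsr1 to Commd1 was 0.158 to 0.224 over the 8 libraries. Commd1b had a mean of 12.5. Strand use is not stated, so reads of Commd1 or Commd1b RNA over Zrsr1 cannot be told apart from its own. Commd1 was not called at any time, with a log2 difference of -0.02 at 72 h (limma adjusted p = 0.917). Thus neither gene of this nested locus passed the test.

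Nnat encodes neuronatin, a small membrane protein of neurons and endocrine cells. Its signal was 0.108 and 0.125 at 0 h, 0.119 and 0.158 at 24 h, 0.156 and 0.124 at 48 h, and 0.0991 and 0.149 at 72 h. The 4 times overlapped, and the highest and lowest libraries were a 24 h and a 72 h one. In the fit with the lower floor, the log2 difference was 0.13 at 24 h, 0.15 at 48 h and 0.04 at 72 h (interval -0.39 to 0.47, limma adjusted p = 0.955). Nnat (ENSMUSG00000067786.16, chromosome 2, 157560078 to 157562522, + strand) lies inside Blcap, an apoptosis gene on the − strand, and shares 0 exonic bases with it. Nnat had 0.0329 to 0.0538 of the Blcap signal, and Blcap, at 2.70 to 3.06, was not called at any time. Unspliced Blcap RNA over Nnat cannot be told apart from Nnat RNA, since strand use is not stated.

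**Figure D3:**
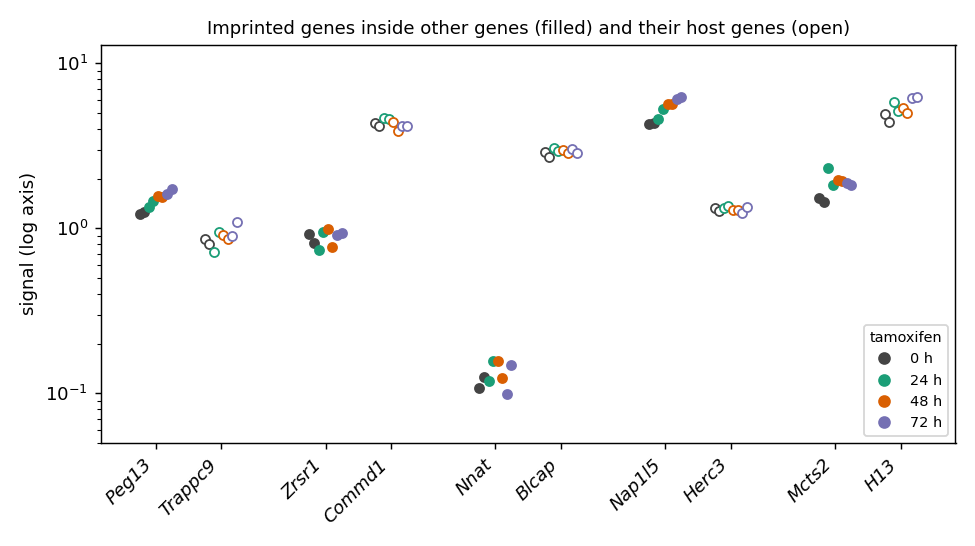
Signal (log axis) of 5 imprinted genes that lie inside other genes (filled points) and of their host genes (open points) in the 8 libraries, coloured by hours of tamoxifen. Peg13 and Nap1l5 lie above their hosts in every library and Zrsr1, Nnat and Mcts2 below theirs.

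The last 4 genes were close to the bottom of the scale. Snrpn, a spliceosome protein of neurons at the Prader-Willi locus, lay between 0.0454 and 0.0956, and 34.1% of its exonic bases also belong to other genes, Snurf and Gm38393 among them. In 0 h replicate 2, 24 h replicate 1, 48 h replicate 2 and 72 h replicate 2, Gm38393 had the same value as Snrpn. The highest, 0.0956, is among these, so the signal cannot be assigned to Snrpn alone. Grb10, an adaptor that restrains the insulin receptor, lay between 0.0152 and 0.0339. Peg3, a zinc finger protein tied to growth in mice, lay between 0.000346 and 0.0150, and its highest value came from 48 h replicate 1 alone. Ndn, necdin, a growth suppressor of neurons, was listed at 0 in all libraries.

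For Snrpn, Grb10 and Peg3, the fit without a filter, on log2(signal + 1), gave differences of -0.02 to 0.02 at the 3 times and called 0 of them. These genes lie close to 0 on that scale, so a change in them would be hard to detect there, and the depth behind the signal is not given. Snrpn (ENSMUSG00000102252.5) runs from 59982495 to 60140219 on the − strand of chromosome 7, and Ndn (ENSMUSG00000033585.5) from 62346569 to 62350262 on its + strand. Peg3 (ENSMUSG00000002265.17) runs from 6703892 to 6730431 on the − strand of the same chromosome, and Grb10 (ENSMUSG00000020176.17) from 11930508 to 12038683 on the − strand of chromosome 11. In bulk RNA, fewer cells with a transcript and less of it per cell cannot be told apart.

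Low signal was not shared by all genes around them. At the Prader-Willi locus, Snhg14, the long noncoding host of small nucleolar RNAs, had 3.23 to 3.55 and Ube3a, the ubiquitin ligase gene that it opposes in neurons, 3.20 to 4.29, whereas Magel2 and Peg12 were listed at 0 and Mkrn3 reached 0.322. Next to Peg3, Zim1 had 1.02 to 1.71, and Usp29 at most 0.0171. Of the insulin and IGF receptor genes that Grb10 acts with, Insr, the insulin receptor, had 1.97 to 3.06 and Igf1r at most 0.000231. Insr, Irs2 and Nedd4 were the 3 of 6 in that list that passed the filter, and 0 were called at 24, 48 or 72 h.

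The neighbourhoods of the 10 genes were listed as 32 annotated neighbours, of which 29 were matched by symbol in the tables and 14 passed the filter. Gnasas1, which was tested and not called at any time, was not among the listed symbols and is outside these counts. Of these 14, 1 was called, Ddc beside Grb10, which was lower at 24, 48 and 72 h. That is 7.14% of the neighbours at each time, against 0.229%, 0.552% and 2.01% of all tested genes. Ddc encodes the decarboxylase that makes dopamine and serotonin, and it is known to be imprinted in the mouse heart. Its signal was 13.3 and 12.5 at 0 h, 7.26 and 7.29 at 24 h, 7.12 and 6.31 at 48 h, and 4.75 and 4.84 at 72 h. All 6 later libraries lay below both 0 h libraries, as in 6.81% of all tested genes. The log2 difference of Ddc was -0.75 at 24 h (limma adjusted p = 0.00838), -0.85 at 48 h (adjusted p = 0.00400) and -1.26 at 72 h (SE 0.06, adjusted p = 0.000359). The 24 h call was lost without the filter, with only the 2 groups compared and without 24 h replicate 1 or either 0 h library (limma adjusted p = 0.0553 to 0.138). The 48 h call was lost without the filter and without either 0 h library (limma adjusted p = 0.0520 to 0.0768), and the 72 h call held under every alternative run. Grb10, next to it, stayed between 0.0152 and 0.0339, and the other 13 tested neighbours were not called at any time.

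The wider list of imprinted genes, again apart from Mest, held 82 symbols, of which 77 were matched, 10 were at 0 in all libraries and 26 passed the filter. Gnasas1 is outside this list as well. At 24 and at 48 h, 2 of the 26 (7.69%) were called, Copg2 higher and Ddc lower, against 0.229% and 0.552% of all tested genes. At 72 h, 5 (19.2%) were called, against 2.01%, with Copg2, Nap1l5, Rtl1 and Klf14 higher and Ddc lower. The median log2 difference of the 26 was 0.03 at 24 h, 0.03 at 48 h and 0.04 at 72 h, against 0.01, 0.00 and 0.01 over all tested genes. Whether the list differs from other genes was not tested. The other 21 genes were not called at 72 h, and H13, the host of Mcts2 and a signal peptide peptidase gene, gained a call under alternatives. H13 had a log2 difference of 0.34 (limma adjusted p = 0.0640), and it was called under the 3 other scalings and without either 24 h library (adjusted p = 0.0349 to 0.0485).

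Nap1l5 is an intronless gene of the nucleosome assembly protein family inside Herc3. Its signal was 4.30 and 4.34 at 0 h, 4.60 and 5.31 at 24 h, 5.71 and 5.68 at 48 h, and 6.06 and 6.23 at 72 h. All 6 later libraries lay above both 0 h libraries, as in 9.58% of all tested genes, and the 72 h mean was 1.42 times that at 0 h. The log2 difference at 72 h was 0.43 (SE 0.06, limma adjusted p = 0.0224). Herc3, its host on the opposite strand, lay between 1.23 and 1.37 with a log2 difference of -0.01 (limma adjusted p = 0.960), and the mean ratio of Nap1l5 to Herc3 was 3.31 at 0 h and 4.76 at 72 h. Unspliced Herc3 RNA over Nap1l5 cannot be told apart from Nap1l5 RNA, since strand use is not stated.

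Rtl1, a retrotransposon-derived gene of the Dlk1 and Meg3 domain that is needed in the placenta, had 4.97 and 4.79 at 0 h, 5.42 and 5.81 at 24 h, 6.07 and 6.32 at 48 h, and 6.39 and 6.82 at 72 h. All 6 later libraries were above 0 h here too, as in 9.58% of all tested genes. The log2 difference at 72 h was 0.37 (SE 0.06, limma adjusted p = 0.0232). Of its 6358 exonic bases, 534 lie in microRNA genes, most of them on the opposite strand, so its strand of origin cannot be told apart. Among these, Mir3071 and Mir136 overlap on opposite strands and had means of 5.11 and 5.09. Whether the signal ignores strand was not tested. Its neighbours were low, with Dlk1 at most 0.00273, Meg3 at most 0.0428 and Rian at most 0.265.

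Klf14, an intronless transcription factor gene beside Mest and Copg2, had 2.58 and 2.34 at 0 h, 2.75 and 2.97 at 24 h, 3.03 and 3.07 at 48 h, and 3.35 and 3.35 at 72 h. Every later library exceeded both 0 h libraries, as in 9.58% of all tested genes. The log2 difference at 72 h was 0.33 (SE 0.05, limma adjusted p = 0.0293). Copg2, a coat protein subunit of Golgi transport, had the largest positive difference of the 26, 1.17 at 72 h (limma adjusted p = 0.000147), and 17.8% of its exonic bases are shared with Mest on the opposite strand. Mest itself was higher by 1.53 at 72 h (limma adjusted p = 0.000112), with means of 2.99 at 0 h and 10.6 at 72 h, and reads over the shared bases cannot be told apart. The calls of Nap1l5, Rtl1 and Klf14 were each lost without the filter and when any 0, 48 or 72 h library was left out, and each held without either 24 h library (limma adjusted p = 0.00705 to 0.0242). The call of Nap1l5 was also lost under quantile normalization (limma adjusted p = 0.0508), and that of Klf14 with only the 2 groups compared (0.0553) and under the replicate block (0.0521). Without any 1 library their log2 differences at 72 h stayed between 0.28 and 0.44.

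**Figure D4:**
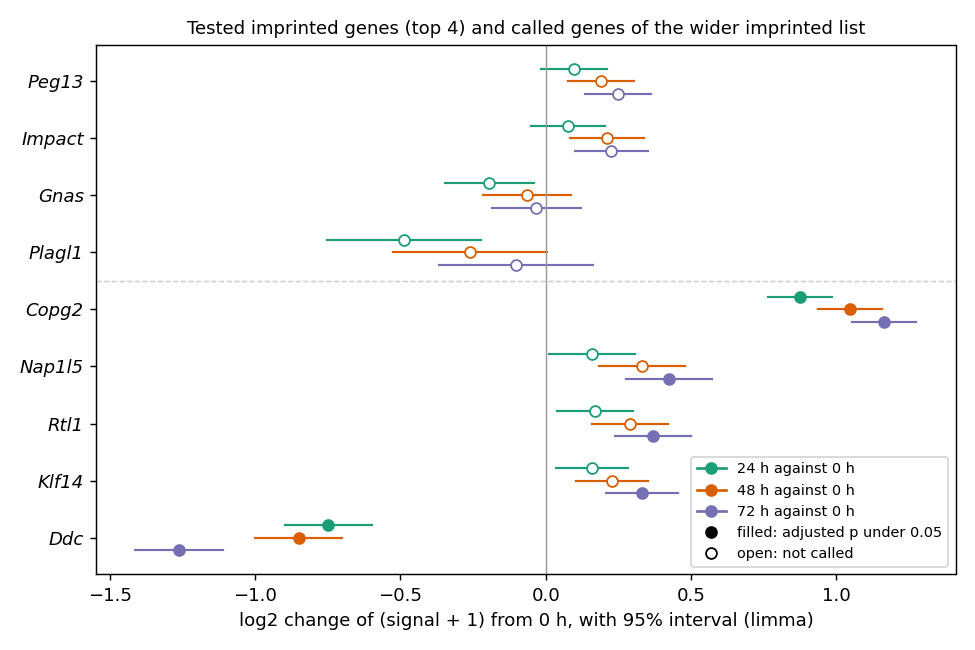
Log2 difference of (signal + 1) from 0 h with its 95% interval for the 4 tested imprinted genes (above the dashed line) and the 5 called genes of the wider imprinted list (below it), at 24, 48 and 72 h. Filled points were called by limma, and the 4 genes above the line have open points only.

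The genes that keep imprints were examined as a list of 11, of which 8 passed the filter and 0 were called at 24, 48 or 72 h. Trim28 had 12.0 to 13.9, Dnmt1 11.1 to 12.7, Uhrf1 5.42 to 6.14 and Zfp445 2.99 to 3.40. Zfp57 had at most 0.0231, and Dppa3 and Zfp42, genes of the early embryo, were listed at 0. The median log2 difference of the 8 was -0.02 at 24 h and -0.03 at 72 h, and the largest from 0 h was 0.20 for Ctcf, an insulator protein, at 24 h (limma adjusted p = 0.322).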

How the data were processed

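RNA from 8 libraries, 2 at each of 0, 24, 48 and 72 h of tamoxifen, was sequenced after ribosomal RNA depletion, per the labels' protocols. The labels' molecule field names genomic DNA, while the protocol and design name RNA, and the values were read as RNA. Per the submitters' processing notes, the tools included HISAT2 2.2, SAMtools 1.12 and deepTools 3.5, with mm10 (GRCm38) as the build. The deposited signal, 1 value per gene and library, was read as the authors' scaled mean coverage of merged exons. The sources used here give no scaling rule, counting tool, strand use or read depth, and counting intervals could not be formed.

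Gene spans come from the deposited exons (1-based, GRCm38). Genes with a mean of at least 1 (9606) entered 1 limma 3.58.1 fit in R 4.3.3 with an intensity trend on log2(signal + 1), a scale that understates the change of low genes. All 8 libraries shared 4 residual degrees of freedom, and p-values were adjusted by Benjamini-Hochberg over all tested genes at 0.05. The fit was run on simulated data with independent noise, and the check required only recovery of changes larger than those of the tested imprinted genes. Its power for changes of their size is not given here. All 10 genes are named by rule, with called genes of the lists; other list genes with values were chosen after their values were seen. The genes, lists and tests were chosen with earlier results of these data known. Alternatives covered the pseudocount, filter, scaling, trend, groups in the fit, replicate block and each library left out. Sequences were read from RefSeq tables.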

Additional observations from a re-analysis of the deposited data

How the results depend on the processing

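Of 688 values recomputed under alternatives, 641 stayed on the same side of the threshold with the same direction, 33 lost a call, 12 gained one and 2 changed sign. The sign changes were both of Gnas at 72 h, 0.056 under quantile normalization and 0.012 without 72 h replicate 2, where leaving out each library gave -0.076 to 0.012. Leaving out each library in turn gave 0 to 1 calls among the 10 genes at 24 h, at 72 h, between 24 and 72 h and in the F test, and 0 to 0 at 48 h. The called gene was Plagl1 at 24 h, between 24 and 72 h and in the F test, and Peg13 at 72 h. Other pseudocounts, filters, scalings, trends and fits of 2 groups called 0 of the 10 genes in each comparison where they gave a value; the F test has no fit of 2 groups. The planned DESeq2 alternative was not run, since the values used are not counts.

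Over all genes, calls at 24, 48 and 72 h numbered 22, 53 and 193. Without a filter they were 4, 5 and 63, with the lower floor 29, 98 and 281, and with only the 2 groups compared 1, 111 and 145. Leaving out each library gave 2 to 104 at 24 h, 2 to 98 at 48 h and 9 to 319 at 72 h. Calls of other imprinted genes without a filter were 1, 1 and 2, and with only the 2 groups compared 0, 3 and 4.

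The deviations of same-numbered libraries correlated at r = -0.016 to 0.402, above 0.1 in 3 of 6 pairs of times, those among 0, 24 and 48 h. They were not above it in every pair, so the numbers were not taken as pairing, though 24 against 72 h had r = 0.099. Most later libraries lay nearest a library of the same number at another time. The 24 h replicate 1 lay nearest 72 h replicate 1. The 24 and 48 h replicates 2 lay nearest each other, as did the 48 and 72 h replicates 1. By contrast, 72 h replicate 2 lay nearest 48 h replicate 1. Whether the numbers mark shared cultures or handling was not tested. The replicate block called 0 of the 10 genes in each comparison, and 18, 24 and 154 genes at 24, 48 and 72 h. Klf14 at 72 h lost its call under the block (limma adjusted p = 0.0521).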
